A study of Mus musculus with 4 samples.

Results

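The regulators of G-protein signalling (RGS proteins) examined here are encoded by 8 genes, Rgs1, Rgs2, Rgs3, Rgs10, Rgs14, Rgs16, Rgs18 and Rgs19, of the 21 numbered Rgs genes and 23990 gene symbols in the expression tables. They were taken by name, with earlier results of these data known. FPKM (fragments per transcript length, scaled to the depth of the library) was summed over the transcripts of each. RNA was measured in effector CD4 cells (CD44+CD4) of wild type C57BL/6 mice (C57BL/6J in the study's methods) with experimental autoimmune encephalomyelitis (EAE), a model of multiple sclerosis in which mice are immunized with the myelin peptide MOG in complete Freund's adjuvant and given pertussis toxin. The CNS group (2 libraries) came from spinal cords and the dLN group (2 libraries) from pooled draining lymph nodes, both sorted at disease onset. Stimulation with PMA and ionomycin between sorting and RNA extraction is described in the study's methods but not in the sample labels, which speak of fresh sorting. Sex and age of the mice are not given in the sources used here, and the labels do not say that the libraries of a tissue came from separate mice, so p-values measure the spread between these libraries only.

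RGS proteins shorten signals from G-protein-coupled receptors. They speed up the hydrolysis of GTP by the alpha subunit, which returns it to its inactive form bound to beta and gamma subunits. In T cells the receptors concerned include those for chemokines and for sphingosine-1-phosphate, so RGS proteins are known for setting how strongly a cell responds to attractants that draw it into or out of a tissue. Rgs1, Rgs2, Rgs3, Rgs16 and Rgs18 belong to the R4 subfamily, most of whose members are small proteins with little beyond the RGS domain. Rgs10 and Rgs14 belong to the R12 subfamily and Rgs19 to the RZ subfamily.

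Promoter windows of 5 of the 8 genes were held by the RefSeq table used (build GRCm38.p6, which is mm10, the build of the expression tables). Those of the 3 genes with a single window are shown. Among the Rgs genes tested, Rgs10 had the largest difference between the tissues and Rgs16 the only one in the opposite direction. Rgs2 differed most between the CNS libraries after Rgs16. Each sequence holds the 250 bases before the annotated start, 5′ to 3′ on the strand of the gene, and capitals mark GC boxes (GGGCGG) and CCAAT boxes (CCAAT) on either strand. The windows are chr1:144004150-144004399 on the minus strand for Rgs2, chr7:128418173-128418422 on the minus strand for Rgs10 and chr1:153740103-153740352 on the plus strand for Rgs16. The RefSeq gene of Rgs10 reaches to 128419506. Its window thus lies before the start of the transcript in the expression tables but within the annotated gene.
Rgs2: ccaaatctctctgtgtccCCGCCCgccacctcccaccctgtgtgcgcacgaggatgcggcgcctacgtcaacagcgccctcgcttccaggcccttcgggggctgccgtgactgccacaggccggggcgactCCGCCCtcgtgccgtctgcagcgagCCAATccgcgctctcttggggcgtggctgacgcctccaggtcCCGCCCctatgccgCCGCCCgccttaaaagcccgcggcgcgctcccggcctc
Rgs10: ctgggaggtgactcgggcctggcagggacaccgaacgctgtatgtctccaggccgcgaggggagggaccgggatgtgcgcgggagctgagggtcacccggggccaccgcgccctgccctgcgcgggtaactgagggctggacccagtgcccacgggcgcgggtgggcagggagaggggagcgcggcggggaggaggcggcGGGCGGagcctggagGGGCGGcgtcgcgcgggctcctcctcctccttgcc
Rgs16: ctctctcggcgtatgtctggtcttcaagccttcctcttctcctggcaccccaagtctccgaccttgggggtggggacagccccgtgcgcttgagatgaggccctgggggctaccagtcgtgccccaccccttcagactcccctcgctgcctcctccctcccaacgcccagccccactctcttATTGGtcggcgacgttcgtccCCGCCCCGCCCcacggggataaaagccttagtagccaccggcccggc
The GC content was 72.4% for Rgs2, 76.4% for Rgs10 and 66.4% for Rgs16, against a median of 52.4% over all 32851 windows of this length. Rgs2 held 4 GC boxes, Rgs10 held 2 and Rgs16 held 2 that overlap by a base, and 32.7% of all windows held at least 1. Rgs2 and Rgs16 held 1 CCAAT box each and Rgs10 none (33.8% of all windows held one). None of the 3 windows held the letters TGANTCA of an AP-1 site (6.75% of all windows), TGACGTCA of a cAMP response element (1.55%) or the NFAT core GGAAA (55.6%).

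From the steps of low FPKM values the depth was estimated at 18.6 M to 22.0 M fragments per library. A mean of 1 FPKM or more in either tissue was reached by 10634 genes, of which 7968 had an adjusted p under 0.05 (limma on log2(FPKM + 1) with Benjamini-Hochberg adjustment over all genes tested), which is 74.9%, with 37.8% of the genes higher and 37.2% lower in CNS. With 2 libraries per tissue the smallest two-sided p of an exact permutation test is 0.33, so calls rest on the variance limma shares between genes. Sex-linked transcripts also split by tissue, in that both CNS libraries held Ddx3y (12.7 and 11.2 FPKM, listed at 0 in dLN) and both dLN libraries held Xist (26.6 and 22.3 FPKM, under 1 FPKM in CNS). Tissue, the sex-linked transcripts and the 2 tables follow the same split and cannot be told apart. CD4 T-cell markers differed as well, with 5 of 8 higher and 2 lower in CNS, among them Cd4 at 502 and 531 FPKM in CNS and 82.0 and 66.7 FPKM in dLN. In bulk RNA, fewer cells of a type and less RNA per cell cannot be told apart.

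Most Rgs genes were more abundant in CNS than in dLN effector CD4 cells. Of the 8 genes, 7 passed the minimum of 1 FPKM, and 6 of these 7 were higher in CNS with an adjusted p under 0.05 (37.8% of all tested genes were called higher). Rgs10 and Rgs14 rose most, by 8.83-fold and 7.45-fold in mean FPKM, followed by Rgs2 (2.85-fold), Rgs3 (2.73-fold), Rgs1 (1.71-fold) and Rgs19 (1.70-fold). Rgs16 was 1.88-fold lower in CNS, without passing the test. Rgs18 was close to 0 in all 4 libraries. The median log2 ratio (CNS over dLN) of the 7 tested genes was 1.41, beside 0.05 over all genes tested. Both CNS libraries lay above both dLN libraries for 6 of the 7 genes (45.7% of all tested genes) and below both for Rgs16, so that the tissues did not overlap for any of the 7, as for 89.4% of all tested genes. The plot of levels by library shows these separations.

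**Figure D1:**
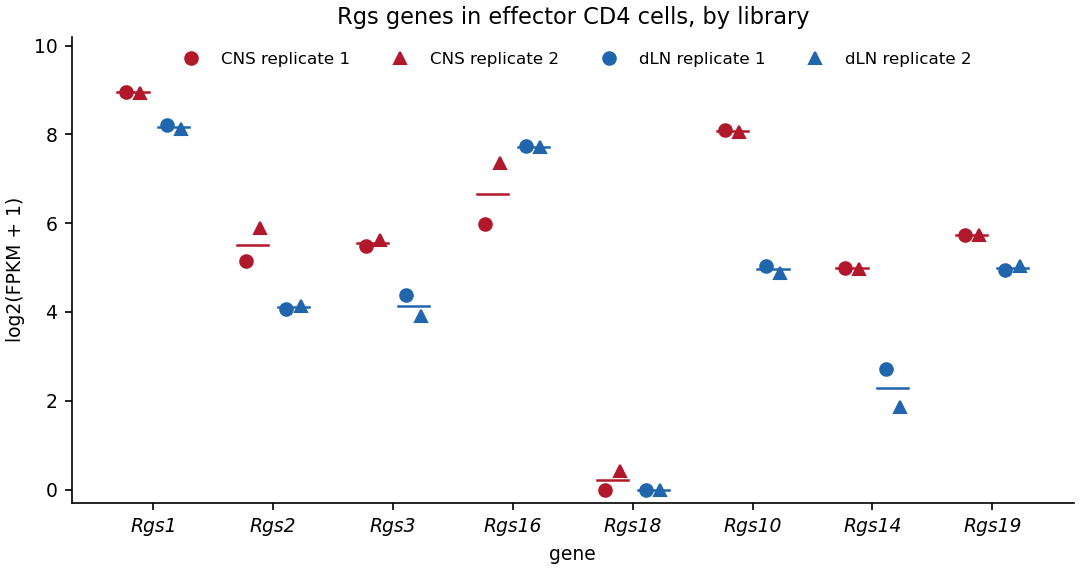
Levels of the 8 Rgs genes as log2(FPKM + 1) in each of the 4 libraries (circles replicate 1, triangles replicate 2, red CNS, blue dLN), with the mean of each tissue as a short line. Rgs10 in CNS (272 and 263 FPKM) lies far above dLN (32.0 and 28.6 FPKM), Rgs16 is the tested gene with its CNS libraries below dLN, and Rgs18 lies at or near 0.

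Rgs1 (Entrez gene 50778, chromosome 1, 144244669 to 144249104, minus strand, 1 transcript) encodes an RGS protein of activated lymphocytes that dampens chemokine receptor signals through Gi and Gq. Its level was 498 and 487 FPKM in CNS and 297 and 278 FPKM in dLN. It was the most abundant Rgs gene in each of the 4 libraries, and only 159 of the tested genes had a higher mean level in CNS and 228 in dLN. Mean FPKM was 492 ± 7.596 for CNS against 288 ± 13.2 for dLN (SD, n = 2 each). On the log2 scale the ratio was 0.77, with a standard error of 0.07 (limma adjusted p = 0.000625). Rgs1 therefore combined a very high level with one of the smaller changes among the Rgs genes.

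Rgs2 (Entrez gene 19735, chromosome 1, 143999338 to 144004149, minus strand, 1 transcript) encodes an RGS protein with a preference for Gq. CNS replicate 1 held 34.3 FPKM, CNS replicate 2 held 58.1 FPKM, and the dLN libraries held 15.9 and 16.6 FPKM. The CNS libraries differed 1.69-fold from each other, whereas those of dLN differed 1.05-fold, and the lower CNS library was still above both dLN libraries. CNS was higher by 1.41 ± 0.25 on the log2 scale (standard error; limma adjusted p = 0.00548). It was 1.03 without CNS replicate 2 and 1.78 without CNS replicate 1.

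Rgs3 (Entrez gene 50780, chromosome 4, 62559847 to 62703019, plus strand) encodes an RGS protein that acts on Gi and Gq and can also bind beta-gamma subunits. Summed over its 3 transcripts it was at 44.0 and 48.1 FPKM in CNS and at 19.8 and 13.97 FPKM in dLN. The libraries of the tissues did not overlap, and CNS was higher by 1.41 ± 0.18 on the log2 scale (standard error; limma adjusted p = 0.00157). The 3737-base transcript carried most of the signal, at 23.7 and 28.6 FPKM in CNS and 12.8 and 9.33 FPKM in dLN. Its part of the gene's FPKM was 53.9% and 59.3% in CNS and 64.5% and 66.8% in dLN. The 4001-base transcript was at 18.0 and 16.1 FPKM in CNS and 6.36 and 4.45 FPKM in dLN. The 4705-base transcript, which starts further upstream, was the lowest, at 2.31 and 3.46 FPKM in CNS and 0.690 and 0.193 FPKM in dLN. All 3 transcripts were thus higher in both CNS libraries, but how the authors' program divided shared fragments among transcripts is not given in the sources used here.

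Rgs16 (Entrez gene 19734, chromosome 1, 153740353 to 153745468, plus strand, 1 transcript) encodes an RGS protein that acts on Gi and Gq and is known to be induced by T-cell activation. CNS replicate 1 held 62.1 FPKM, CNS replicate 2 held 162 FPKM, and the dLN libraries held 212 and 210.1 FPKM. Both CNS libraries were below both dLN libraries, but they differed 2.60-fold from each other, the widest replicate gap of any tested Rgs gene, while the dLN libraries differed 1.01-fold. Its log2 ratio was -1.06, with a standard error of 0.45 (limma adjusted p = 0.0829). Over the alternatives the limma adjusted p lay between 0.00451 and 0.21. Without CNS replicate 1 the log2 ratio was -0.38 (limma adjusted p = 0.0169) and without CNS replicate 2 it was -1.75 (limma adjusted p = 0.00451). The size of the difference therefore depended on the CNS library, and its direction did not change in any of the 17 alternatives. An exon of the antisense gene Gm28513 overlaps Rgs16 in GENCODE M21, and the TruSeq RNA V2 kit does not mark strand, so reads of the pair cannot be told apart.

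Rgs18 (Entrez gene 64214, chromosome 1, 144752841 to 144775421, minus strand, 1 transcript) encodes an RGS protein of platelets and other blood cells. CNS replicate 2 held 0.332 FPKM, about 12 fragments, and the gene was listed at 0 in the other 3 libraries. A count of 0 allows up to 3 fragments, which corresponds to 0.0845 FPKM in CNS replicate 1, 0.0971 FPKM in dLN replicate 1 and 0.0813 FPKM in dLN replicate 2. Such limits cover counting error only. It was not tested, because its mean was below 1 FPKM in both tissues. Of 6 platelet markers none reached 1 FPKM, and Pf4 and Gp6 were listed at 0 in all 4 libraries. The 12 myeloid markers present in the tables summed to 18.0 FPKM in CNS replicate 1, 344 FPKM in CNS replicate 2 and 4.17 and 3.79 FPKM in dLN, and 9 of them (among them Csf1r, C1qa and S100a8) were listed at 0 in both dLN libraries. The part of other cell types in the Rgs18 fragments was not tested.

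Rgs2, Rgs1 and Rgs18 lie in a cluster of 776 kb on chromosome 1 in which the tables hold 5 genes, all of them Rgs genes, in the order Rgs2, Rgs13, Rgs1, Rgs21 and Rgs18. Rgs13 and Rgs21 were listed at 0 in all 4 libraries. A pair of genes that were well expressed and higher in CNS thus stood among 3 neighbours that were silent or nearly so. Uchl5, the nearest gene listed outside the cluster next to Rgs2, was at 21.4 and 18.7 FPKM in CNS and 24.9 and 24.1 FPKM in dLN (log2 ratio -0.28, limma adjusted p = 0.0547).

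Rgs10 (Entrez gene 67865, chromosome 7, 128373625 to 128418172, minus strand, 1 transcript) encodes a short RGS protein that acts on Gi subunits. It was at 272 and 263 FPKM in CNS and at 32.0 and 28.6 FPKM in dLN. Replicates agreed within 1.03-fold in CNS and 1.12-fold in dLN, so the tissue difference was far larger than the replicate spread. Rgs10 had a log2 ratio of 3.10 with a standard error of 0.09 (limma adjusted p = 8.12e-05), a larger change in size than that of 96.6% of the tested genes. Rgs10 is also expressed by microglia and macrophages. The 12 myeloid markers summed to 18.0 FPKM in CNS replicate 1 and 344 FPKM in CNS replicate 2. Much of the latter was S100a8 (0 and 101 FPKM in CNS), S100a9 (0.767 and 96.0 FPKM) and Lyz2 (3.22 and 92.1 FPKM). C1qa (2.05 and 9.24 FPKM), C1qb (3.57 and 12.5 FPKM) and C1qc (2.70 and 7.13 FPKM) were read in both CNS libraries and listed at 0 in dLN. Of 10 tested myeloid markers, 6 were called higher in CNS and 0 lower, beside 37.8% and 37.2% of all tested genes. The part of myeloid cells in the Rgs10 difference was not tested. With 1 library left out at a time, the log2 ratio of Rgs10 was 3.08 without CNS replicate 1 and 3.12 without CNS replicate 2. It was 3.18 without dLN replicate 1 and 3.02 without dLN replicate 2. Over all alternatives that ratio lay between 2.74 (transcript-length correction) and 3.34 (same upper quartile per library). The tested genes nearest to Rgs10, by Euclidean distance of log2(FPKM + 1) over the 4 libraries, were Klf6 (0.31), Zfp36l2 (0.32) and Psap (0.53).

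Rgs14 (Entrez gene 51791, chromosome 13, 55369732 to 55384687, plus strand, 1 transcript) encodes a larger protein that joins an RGS domain to Ras-binding domains and a GoLoco motif, which binds inactive Gi subunits. It was at 30.9 and 30.5 FPKM in CNS and at 5.59 and 2.65 FPKM in dLN. Here the dLN libraries were the ones that differed, by 2.11-fold, whereas those of CNS agreed within 1.02-fold. The ratio was 2.69 on the log2 scale, with a standard error of 0.29 (limma adjusted p = 0.000917), and became 2.26 without dLN replicate 2 and 3.12 without dLN replicate 1. In dLN, 30.6% of the tested genes had a lower mean level than Rgs14, and in CNS 78.3% did. The R12 pair thus showed the largest changes of the Rgs genes tested.

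Rgs19 (Entrez gene 56470, chromosome 2, 181688419 to 181693977, minus strand, 7 transcripts) encodes the protein also called GAIP, which acts on Gi-class subunits. It was at 52.2 and 51.9 FPKM in CNS and at 29.7 and 31.6 FPKM in dLN. CNS was higher by a log2 ratio of 0.75 with a standard error of 0.08 (limma adjusted p = 0.001). It had the smallest called change and close agreement between replicates (1.01-fold in CNS and 1.06-fold in dLN). The 1514-base transcript carried 78.3% and 73.4% of its FPKM in CNS and 86.0% and 78.6% in dLN. Taking that transcript alone in place of the sum gave a log2 ratio of 0.63.

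Transcript composition moved with the tissue ratio over all genes. The median log2 ratio rose from -0.04 in the fifth of genes with the lowest GC content to 0.26 in the highest, and was 0.33 in the fifth with the shortest transcripts and -0.14 in the longest. GC content was 37.4% for Rgs1, 43.6% for Rgs2, 55.6% for Rgs3, 50.7% for Rgs10, 57.6% for Rgs14, 53.5% for Rgs16 and 56.5% for Rgs19, and at 875 bases the Rgs10 transcript was the shortest among the Rgs genes with a single transcript. With a correction for GC content, chosen after seeing the data, the log2 ratio was 2.44 for Rgs14, 0.53 for Rgs19 and 3.10 for Rgs10, and each of the 6 genes called higher was still called. Under that correction Rgs16 also passed the test (log2 ratio -1.15, limma adjusted p = 0.0408).

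**Figure D2:**
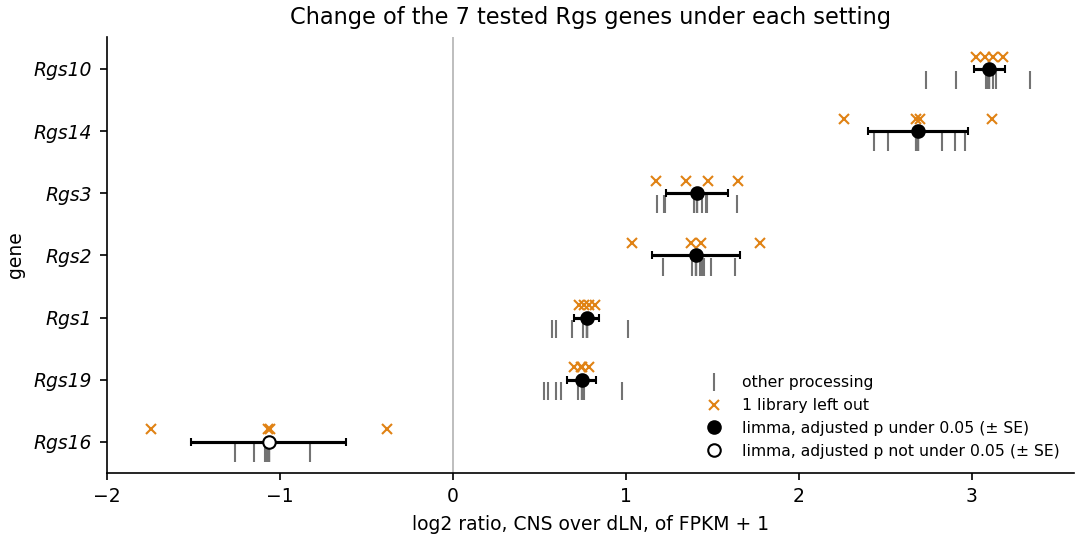
Log2 ratio (CNS over dLN, of FPKM + 1) of the 7 tested Rgs genes, with the limma estimate and its standard error (filled where the adjusted p was under 0.05), the values under other processing (grey bars) and with 1 library left out (orange crosses). Rgs10 (3.10) and Rgs14 (2.69) stand apart from Rgs3, Rgs2, Rgs1 and Rgs19 (0.75 to 1.41), and the Rgs16 values spread from -1.75 to -0.38.

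FPKM is scaled to transcript length, so levels of different genes can be set side by side. The tissue ratio still moved with length and GC content over all genes, and the parts given here were not corrected for either. All numbered Rgs genes together summed to 996 and 1104 FPKM in CNS and to 612 and 582 FPKM in dLN. Rgs1 made up a similar part of this sum in both tissues, 49.97% and 44.1% in CNS and 48.5% and 47.8% in dLN. Second place changed hands, with Rgs10 second in both CNS libraries (27.3% and 23.8%) and Rgs16 second in both dLN libraries (34.5% and 36.1%). Rgs16 made up 6.24% and 14.6% in CNS, and Rgs10 made up 5.23% and 4.91% in dLN. The part of Rgs19 was 4.97% ± 0.381 for CNS against 5.14% ± 0.406 for dLN (SD, n = 2 each), which differ by less than the replicate spread. That of Rgs14 was 2.93% ± 0.244 for CNS against 0.684% ± 0.324 for dLN (SD, n = 2 each). In CNS, Rgs2 and Rgs3 had levels closer than their replicate spread (46.2 ± 16.8 and 46.1 ± 2.88 FPKM, SD, n = 2), and Rgs19 at 52.1 ± 0.201 FPKM (SD, n = 2) was within the spread of Rgs2. In dLN, Rgs10 and Rgs19 did not differ beyond their spread (30.3 ± 2.44 and 30.7 ± 1.32 FPKM, SD, n = 2), nor did Rgs2 and Rgs3 (16.2 ± 0.514 and 16.9 ± 4.15 FPKM, SD, n = 2).

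**Figure D3:**
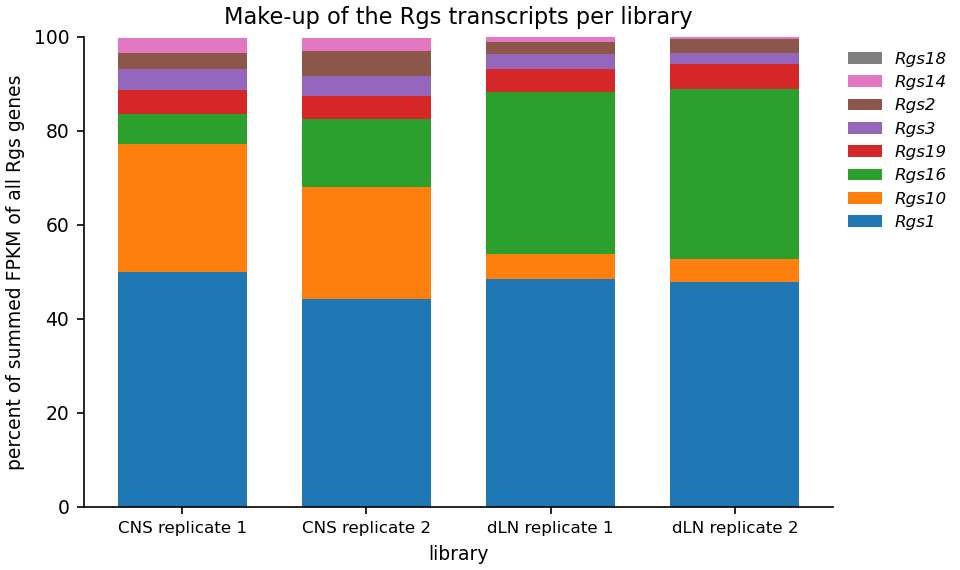
Percent of the summed FPKM of all numbered Rgs genes that each of the 8 genes made up, per library (stacked bars from 0). Rgs1 takes between 44.1% and 49.97% in every library, whereas Rgs10 is the second largest part in CNS and Rgs16 in dLN.

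The other 13 numbered Rgs genes were rare, with a highest mean of 0.903 FPKM, and none was tested. Of these, 4 were listed at 0 in all 4 libraries, 7 exceeded 3 fragments in a CNS library and 3 in a dLN library. Chosen after their values were seen, Rgs4 (1.01 and 0.252 FPKM), Rgs5 (0.577 and 0.856 FPKM) and Rgs7 (0.0212 and 0.0832 FPKM) were read in CNS and listed at 0 in both dLN libraries. For Rgs7 this was only about 1 and 4 fragments, close to the 3 fragments that a count of 0 allows. By contrast, Rgs8, Rgs9, Rgs11 and Rgs12 were read in both tissues. Rgs9 was at 0.439 and 0.414 FPKM in CNS and 0.590 and 0.189 FPKM in dLN, so its libraries overlapped. Means in CNS and dLN were 0.163 and 0.0280 FPKM for Rgs8, 0.230 and 0.0421 FPKM for Rgs11 and 0.903 and 0.161 FPKM for Rgs12. Rgs4 and Rgs7 are known from neurons and Rgs5 from vessel-associated cells. Of 7 neural markers, which summed to 51.9 and 54.1 FPKM in CNS and 55.8 and 58.0 FPKM in dLN, Gfap (0.655 and 2.51 FPKM in CNS), Aqp4 (0.0097 and 0.132 FPKM in CNS) and Mog (0.0307 and 0 FPKM in CNS) were listed at 0 in both dLN libraries. Mbp made up most of the neural sum (CNS libraries 48.6 and 44.5 FPKM, dLN libraries 55.5 and 57.7 FPKM). It was lower in CNS (log2 ratio -0.28, limma adjusted p = 0.0361). Of the 4 neural markers tested, 2 were called higher and 1 lower (median log2 ratio 1.09). Tubb3 (log2 ratio 1.94, limma adjusted p = 0.00295) and Gfap (1.27, limma adjusted p = 0.0312) were the higher ones. Snap25 was not called (0.92, limma adjusted p = 0.0822). The part of other cells in the Rgs4, Rgs5 and Rgs7 traces was not tested. A list of 23 genes outside the 8 whose products carry an RGS or related domain held 9 tested genes. It is not a full count of such genes, and receptor kinases were placed in another list. Of the 9, 2 were called higher, 2 lower and 5 not called (median log2 ratio -0.07). Among all tested genes 37.8% were called higher and 37.2% lower. Arhgef1, whose product binds G12 and G13 subunits, was the most abundant of those called, at 159 and 179 FPKM in CNS and 48.1 and 39.4 FPKM in dLN (log2 ratio 1.93). Snx14, a sorting nexin, was also higher (2.09), and Akap10, an anchor of protein kinase A, was lower (-0.66).

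Of 9 tested genes of the alpha subunits, the class of protein that RGS proteins act on, 5 were higher and 3 lower in CNS (median log2 ratio 0.34), beside 37.8% higher and 37.2% lower among all tested genes. Gnai2, the main Gi subunit of lymphocytes, was at 427 and 443 FPKM in CNS and 68.1 and 43.1 FPKM in dLN (log2 ratio 2.98, standard error 0.22, limma adjusted p = 0.000309). Gna15, a Gq-class subunit of blood cells, was at 57.0 and 57.3 FPKM in CNS and 6.23 and 3.13 FPKM in dLN (log2 ratio 3.41). Others of the same classes, chosen after their values were seen, were not called higher. Gnai3 had a log2 ratio of -0.22 (limma adjusted p = 0.125), with 74.1 and 62.6 FPKM in CNS and 79.9 and 78.7 FPKM in dLN, and reached 0.02 with the same upper quartile per library. Gnaq was lower, with a log2 ratio of -0.35 (limma adjusted p = 0.0264), and this call was lost in 8 of 17 alternatives. Of 9 tested beta and gamma subunit genes, 5 were higher and 1 lower (median 0.72), beside the same 37.8% and 37.2% of all tested genes, and those that rose most were Gngt2 (log2 ratio 2.73) and Gng2 (2.56). Here and for the other lists, the genes named as rising or falling most are those with a mean of 10 FPKM or more in either tissue.

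Among genes of receptors that signal through G proteins, 10 of 18 tested chemoattractant receptor genes were higher and 5 lower in CNS (median log2 ratio 1.03), against 37.8% and 37.2% of all tested genes. The changes of named receptors ran in both directions, with Cxcr4 (3.47) and the leukotriene receptor gene Ltb4r1 (2.74) rising most and Ccr6 (-2.62) and Ccr8 (-2.02) falling most. Of 21 tested receptors for lipids, adenosine and other ligands, 14 were higher and 6 lower (median 0.98), against the same 37.8% and 37.2%. S1pr1, the sphingosine-1-phosphate receptor of lymphocyte egress, was at 80.1 and 70.4 FPKM in CNS and 1.78 and 1.13 FPKM in dLN (log2 ratio 4.97), and Gpr34 had a log2 ratio of 3.33, while the prostaglandin receptor gene Ptger2 (-2.51) and Gpr174 (-1.13) were lower.

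A mixed list of receptor kinases, arrestins and other G-protein regulators held 13 tested genes, of which 9 were higher and 1 lower (median log2 ratio 1.05), where 37.8% and 37.2% of all tested genes were. Those that rose most were Arrb2 (beta-arrestin 2) at 129 and 137 FPKM in CNS and 16.4 and 12.4 FPKM in dLN (3.13) and Gpsm3, a GoLoco protein, at 3.11. Of 23 tested effectors of cAMP and beta-gamma subunits, 17 were higher and 3 lower (median 0.76), against 37.8% and 37.2% of all tested genes. The Rac activator gene Prex1 (3.16) and the adenylyl cyclase gene Adcy7 (2.49) rose most, and Rock2 (-1.27) and Prkar2a (-0.86) fell most. The plot of log2 ratios by gene list shows each list's median beside the 0.05 of all tested genes. The medians of the list of other genes with an RGS or related domain (-0.07) and of the genes induced by PMA and ionomycin (-1.76) lay below it.

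**Figure D4:**
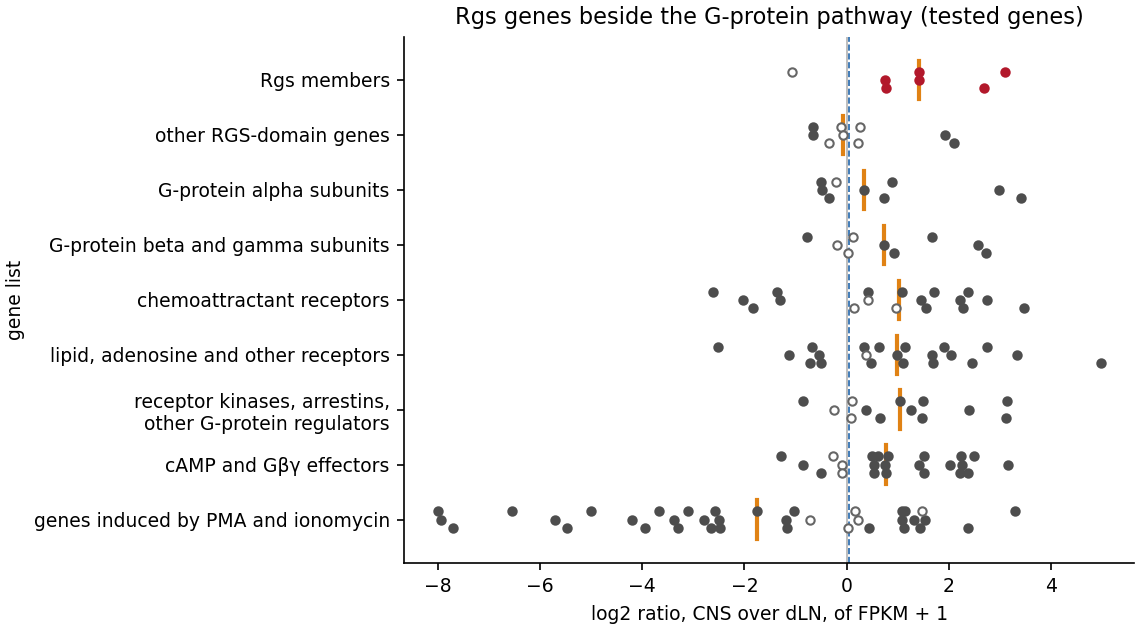
Log2 ratio (CNS over dLN, of FPKM + 1) of each tested gene in the Rgs group and in 8 lists of G-protein pathway or stimulation genes (filled, adjusted p under 0.05; open, not; orange line, median of the list; dashed blue line, median of all tested genes, 0.05). The Rgs genes have a median of 1.41, and the genes induced by PMA and ionomycin one of -1.76.

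Rgs1, Rgs2 and Rgs16 are known as genes that respond to T-cell activation, so the levels of stimulation genes are given beside them. Of 37 genes that PMA and ionomycin induce, 10 were higher and 22 lower in CNS (median log2 ratio -1.76), against 37.8% and 37.2% of all tested genes. Il17f (-8.00) and Il4 (-7.93) fell most, whereas Fos (3.29) and Junb (2.38) rose most. The 37 genes summed to 4644 and 6604 FPKM in CNS against 18588 and 19860 FPKM in dLN, with CNS replicate 2 above CNS replicate 1. Il17f was at 3.21 and 4.92 FPKM in CNS and 1416 and 1150 FPKM in dLN. Because the list holds such cytokine genes, its sum is not a measure of stimulation alone. Rgs2 and Rgs16 were also higher in CNS replicate 2, whereas Rgs1 was not (498 FPKM in CNS replicate 1 and 487 FPKM in CNS replicate 2). The myeloid markers likewise summed higher in CNS replicate 2 (344 FPKM) than in CNS replicate 1 (18.0 FPKM). The parts of stimulation and of myeloid cells in the Rgs differences were not tested.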

How the data were processed

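RNA of effector CD4 cells was sequenced in 2 CNS and 2 dLN libraries. After trimming and mapping, the authors computed FPKM for 33819 RefSeq transcripts (mm10) and deposited a table per tissue. The aligner and the FPKM program are not given in the sources used here. The CNS header joins both library names in 1 cell, and its value columns were taken in that order.

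FPKM was summed by symbol (23990 symbols, 565 transcripts without one left out). Genes averaging 1 FPKM or more in either tissue were tested on log2(FPKM + 1), a scale that understates changes of low genes, with limma 3.58.1 (trend) in R 4.3.3, a single term for tissue, and adjusted by Benjamini-Hochberg at 0.05. Other steps ran in Python 3.11.15 (pandas 2.3.3, numpy 2.4.6, matplotlib 3.10.9, scipy 1.17.1). Both the limma step and the depth estimate were tested on simulated data. Depth came from low FPKM values, of which 90.7% to 93.2% were whole multiples of 1 fragment (within 0.05, where chance gives 10%) once a constant was taken off transcript length.

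The genes named are the 8 Rgs genes, other Rgs genes at 1 FPKM or more (none), and from each pathway list up to 2 called genes with the largest rise and 2 with the largest fall among those at 10 FPKM or more. Exceptions are marked. The 3 tested genes nearest to the Rgs gene with the largest called rise were also named, and no Rgs gene was called lower. The Rgs genes and the lists were chosen with earlier results of these data known. Strand and overlaps came from GENCODE M21, promoters from RefSeq. Transcript starts count from 1. Alternatives covered the pseudocount, 3 scalings, the highest transcript, 3 filters, eBayes without trend, a replicate block, leaving out each library and, added after seeing the data, corrections for GC content and length.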

Additional observations from a re-analysis of the deposited data

How the results depend on the processing

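Rgs1, Rgs2, Rgs3, Rgs10, Rgs14 and Rgs19 kept their direction and an adjusted p under 0.05 in each of 17 alternatives, and 6 or 7 Rgs genes were called in every one. Rgs16 passed the test only with the same FPKM sum per library (log2 ratio -1.26), with the GC-content correction (-1.15) and when either CNS library was left out, and with 1 library left out at a time its log2 ratio ran from -1.75 to -0.38, the lone library being assumed to vary like the other tissue. Leaving out a CNS library removes the spread between the CNS libraries, and the cause of the other gains was not tested. The 25 pathway genes named by rule kept direction and call in all 423 comparisons. Taking the highest transcript moved the Rgs1 part of the summed Rgs FPKM in dLN to 49.1%. Over all genes, 6518 to 8477 were called. The same sum per library shifted the median log2 ratio by -0.18 and the same upper quartile by 0.21, with 42.9% and 59.7% of calls higher in CNS beside 50.4%. No Rgs gene changed direction.

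Replicate numbers 1 and 2 occur in both tissues, but no pairing is described, and the replicate differences of the tissues correlated at 0.0933 across genes. A replicate block gave 7828 called genes and 6 called Rgs genes, and changed no call on an Rgs gene. Depth limits Rgs18 and the other rare Rgs genes, and 2 libraries per tissue limit Rgs16.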

Other observations

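Ratios within a library do not depend on how libraries are scaled to each other, but those given here were not corrected for transcript length or GC content. The FPKM of Rgs1 was 8.01 and 3.01 times that of Rgs16 in the CNS libraries and 1.40 and 1.32 times in the dLN libraries. Rgs10 was at 4.37 and 1.63 times Rgs16 in CNS and at 0.151 and 0.136 times in dLN, so the order of this pair was the opposite in the tissues in all 4 libraries. Rgs1 was at 1.83 and 1.85 times Rgs10 in CNS and at 9.27 and 9.73 times in dLN, with close agreement between replicates. Ratios that hold Rgs16 differed between the CNS libraries as its level did.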
